A study of Mus musculus with 15 samples.

Results

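Digestive hydrolases of the intestinal brush border were followed as 10 genes in mouse small intestinal organoids: Sis, Lct, Mgam, Anpep, Alpi, Dpp4, Treh, Mep1a, Mep1b and Enpep. They were chosen by name, as enzymes that the absorptive epithelium carries on its microvilli, with earlier results of these data known. They are 10 of the 43629 genes in the count table. All 10 passed the filter on low values in each comparison. Organoids are epithelial cultures grown from crypts, here of the proximal small intestine of mice on a C57B6/129 background, and RNA of 13 cultures is compared. The 5 WT libraries came from APC flox/flox lines (WT 1, 2, 5 and 6) and from a Dox naive culture (WT naive), all kept in ENR medium, which supplies EGF, Noggin and the Wnt agonist RSPO1. The 4 Apc libraries (Apc 1, 2, 5 and 6, Apc delta/delta) carry the deleted allele of the Apc tumour suppressor and share line numbers with WT. The 4 P-Rspo3 libraries (15d, 4d, M and F) carry a Ptprk-Rspo3 inversion, induced with doxycycline in polyclonal R26-rtTA/c3GIC9 cultures. Their names come from the titles EN15d, EN4d, EN_M and EN_F, and they were treated as replicates of a single group without a covariate. Whether differences between these 4 libraries go with what the tags stand for was not tested. Both mutant groups were kept in EN medium, without RSPO1, so that genotype and medium cannot be told apart in either comparison with WT. The P-Rspo3 cultures also differ in origin from the APC flox/flox lines and in doxycycline treatment from WT naive. These differences cannot be told apart from the inversion. Whether libraries of a group came from separate animals is not given for all of them, and p-values then measure the spread between these cultures.

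The brush border is the apical surface of enterocytes, the absorptive cells that mature as they leave the crypt. Enzymes anchored in its membrane carry out the last steps of digestion: disaccharidases release monosaccharides, peptidases trim peptides to amino acids and short peptides, and intestinal alkaline phosphatase removes phosphate from nucleotides, lipids and bacterial lipopolysaccharide. Neighbouring transporters then take up the products. Sucrase-isomaltase and the alkaline phosphatase are in common use as markers of enterocyte maturation, and Wnt signalling keeps crypt cells in the undifferentiated, dividing state.

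The sequences in front of the start sites give the setting of these genes, and those of Sis, Alpi, Treh and Anpep are printed because the first 3 hold letters read by CDX or HNF4 factors, whose genes are described further on, and because Anpep changed least. RefSeq start sites on GRCm38.p6 were found for 9 of the 10 genes. Each line gives the 250 bases before the start in the direction of transcription, with motif matches in capitals. The windows are chr3:72967864-72968113 (minus strand) for Sis, chr1:87101607-87101856 (minus strand) for Alpi, chr9:44672983-44673232 (plus strand) for Treh and chr7:79848211-79848460 (minus strand) for Anpep.
Sis: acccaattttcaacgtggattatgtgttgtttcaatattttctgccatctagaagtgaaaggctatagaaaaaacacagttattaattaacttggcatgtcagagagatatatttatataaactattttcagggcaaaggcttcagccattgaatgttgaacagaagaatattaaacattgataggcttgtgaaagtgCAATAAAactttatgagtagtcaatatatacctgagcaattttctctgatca
Alpi: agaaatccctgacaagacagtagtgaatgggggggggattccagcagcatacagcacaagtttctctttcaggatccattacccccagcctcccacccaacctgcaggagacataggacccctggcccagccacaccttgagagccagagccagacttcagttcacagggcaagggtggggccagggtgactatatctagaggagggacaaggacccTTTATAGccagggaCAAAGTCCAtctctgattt
Treh: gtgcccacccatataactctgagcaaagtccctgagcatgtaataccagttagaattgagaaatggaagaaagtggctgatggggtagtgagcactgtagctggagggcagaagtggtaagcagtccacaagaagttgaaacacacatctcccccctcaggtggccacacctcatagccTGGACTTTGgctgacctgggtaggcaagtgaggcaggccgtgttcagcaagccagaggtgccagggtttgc
Anpep: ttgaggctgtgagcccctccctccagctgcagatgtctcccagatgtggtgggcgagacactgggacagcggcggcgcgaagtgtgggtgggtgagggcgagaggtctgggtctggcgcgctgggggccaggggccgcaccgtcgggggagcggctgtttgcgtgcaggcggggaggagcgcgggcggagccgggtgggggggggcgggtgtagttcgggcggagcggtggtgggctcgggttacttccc
Both strands were searched for TTTATNG, which caudal (CDX) homeobox proteins read, and for AGATAA, the core read by zinc finger proteins of the GATA family. The letters CAAAGTNCA stood for HNF4 sites. In the Sis window a CDX match lay at -52 to -46, counted from the start site, on the opposite strand. The Alpi window held a CDX match at -33 to -27 and an HNF4 match at -19 to -11. The Treh window held an HNF4 match at -71 to -63 on the opposite strand, and the Anpep window, which lies downstream of a further first exon in GENCODE, held none of these letters. Of the windows not printed, Lct and Mgam held GATA matches, Dpp4 a GATA and a CDX match, and the others none. No matches overlapped. Over the 9 windows, CDX letters occurred in 3, GATA in 3 and HNF4 in 2, while of 32851 promoter windows in RefSeq, 9.81%, 9.99% and 1.19% held them, respectively. A match describes letters and is not evidence of binding. The printed windows were picked with the fold changes known. Dpp4, with a log2 fold change of -2.67 in Apc against WT, held CDX letters. Lct (-8.82) and Enpep (-8.71) held neither CDX nor HNF4 letters. Whether these letters go with the size of a fall was not tested.

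Total counts ranged from 28902729 to 35528495 over the 13 libraries, and epithelial markers were abundant in all of them: the summed FPKM (fragments scaled to transcript length and sequencing depth) of 5 epithelial genes was 1670 to 2110 in WT, 1720 to 2190 in Apc and 1670 to 2120 in P-Rspo3. Of the 6 fibroblast markers, 4 had at most 3 counts in each group, and the summed FPKM of the list was at most 0.311 in any library; the 4 immune markers summed to at most 0.316. The 3 endothelial markers summed to 0.278 to 0.365 in WT, 1.17 to 2.04 in Apc and 0.122 to 0.474 in P-Rspo3. The 4 pancreatic acinar markers summed to 3.87 to 7.22, 11.7 to 20.9 and 2.35 to 4.25 in the same order. Neither sum stands for its whole list. Log2 fold changes in Apc against WT were 10.96 for Cdh5 but -2.95 for Pecam1, and the third endothelial gene, Kdr, was too low to be tested. Of the 4 acinar markers, 3 had 0 counts in every Apc library, which left Cela1. Rspo3 had 0 to 1 counts in WT, 7 to 57 in Apc and 539 to 1079 in P-Rspo3, while FPKM of its fusion partner Ptprk was 13.1 to 18.6 in WT, 18.2 to 24.5 in Apc and 6.57 to 13.3 in P-Rspo3. Apc mRNA was at 28.3 to 30.5 FPKM in the Apc libraries and 11.6 to 22.3 in WT; these values cover the whole gene and do not check the deleted part.

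In WT organoids the 10 hydrolases were expressed over a wide range, with Sis the most abundant and Mep1a the least. FPKM is per transcript length, so that levels of different genes can be set side by side. Mean FPKM over the 5 WT libraries was 795 for Sis, 365 for Alpi and 136 for Mgam, and each of these stood above the next in 5 of 5 libraries, with Enpep (68.4) next. The rest followed as Treh (53.0), Anpep (44.0), Mep1b (35.6), Dpp4 (34.3), Lct (19.9) and Mep1a (12.1). From Enpep down, each gene stood above the next in only 3 or 4 of 5 libraries, so that neighbours in this order did not differ beyond their spread. The summed FPKM of the 10 genes was 1367 to 1993 in WT.

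**Figure D1:**
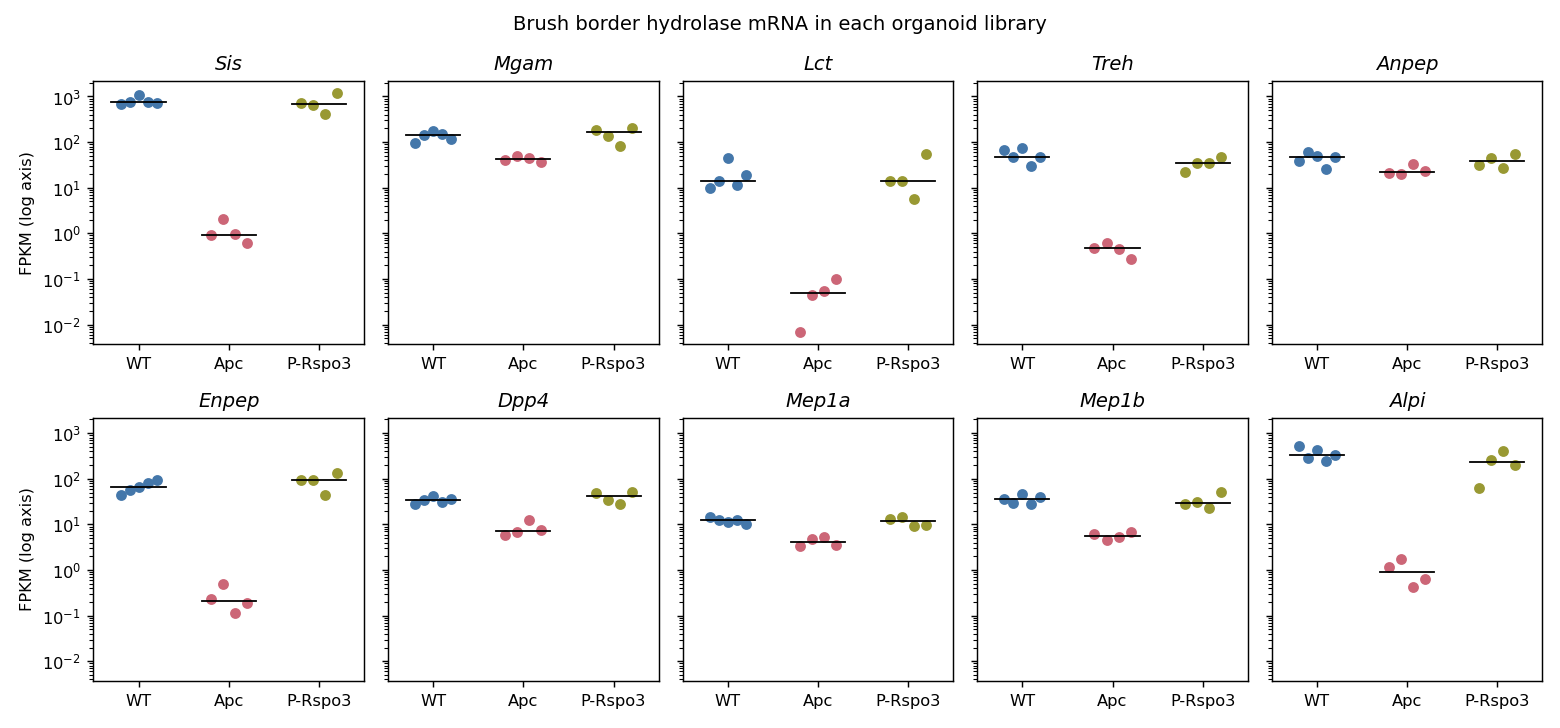
FPKM of each hydrolase (log axis) in the 5 WT, 4 Apc and 4 P-Rspo3 libraries; each point is a library and the bar is the group median. In the Apc libraries Sis, Lct, Treh, Enpep and Alpi lie below 3 FPKM, whereas Mgam stays at 36.7 to 49.9 FPKM and the P-Rspo3 points overlap the WT points for all 10 genes, with Alpi in P-Rspo3 15d (62.0 FPKM) the farthest below them.

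With Apc deletion, mRNA of all 10 hydrolases was lower, but by very different amounts. All 10 were called lower in Apc against WT. A call needed p under 0.05 after Benjamini-Hochberg adjustment in edgeR's quasi-likelihood test against no change. It also needed an estimated change of more than 1 log2 unit. Of the 16749 genes tested, 14.1% were called lower and 12.2% higher. The median log2 fold change of the 10 was -5.14, beside 0.00058 for all genes tested. FPKM was lower in every Apc library than in any WT library for 9 of the 10, a pattern seen in 16.6% of all genes tested; the exception was Anpep. The fold changes fell into a low and a high range with a gap between them, and this division was made after the values were seen: log2 fold changes were -9.91 to -7.36 for Sis, Lct, Alpi, Enpep and Treh and -2.92 to -1.21 for Mep1b, Dpp4, Mgam, Mep1a and Anpep.

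Among the disaccharidases, Sis, which encodes sucrase-isomaltase and splits sucrose and the branch points of starch, showed the largest change. Its FPKM was 693, 763, 1051, 759 and 710 in WT 1, 2, 5, 6 and naive and 0.913, 2.11, 0.948 and 0.613 in Apc 1, 2, 5 and 6. The lowest WT library was thus 328-fold above the highest Apc library, and all Apc libraries still held 113 to 337 counts of the gene. The log2 fold change was -9.91 ± 0.45 (SE; 95% interval -10.9 to -8.91; adjusted p = 4.33e-08, edgeR), and 0.173% of genes tested had a lower value. Sis lies at chr3:72888557-72967863 on the minus strand (GRCm38).

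Mgam encodes maltase-glucoamylase, a close relative of sucrase-isomaltase that frees glucose from maltose and short starch chains. FPKM was 95.9, 142, 174, 148 and 117 in WT and 41.4, 49.9, 44.5 and 36.7 in Apc, with no overlap. It fell by 1.93 ± 0.18 on the log2 scale (SE; interval -2.32 to -1.53; adjusted p = 5.36e-06, edgeR), a 3.81-fold fall against the 961-fold fall of Sis. The ratio of Sis to Mgam FPKM within a library accordingly went from 5.13 to 7.23 in WT to 0.0167 to 0.0424 in Apc. Mgam (chr6:40628831-40769123) has a neighbouring copy, Mgam2-ps, whose transcripts share 0.295% of the 50-base stretches of Mgam; the copy was at 4.79 to 7.07 FPKM in WT and 0.637 to 2.38 in Apc, well below Mgam itself, and reads assigned between them are to that extent uncertain.

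Lct, lactase-phlorizin hydrolase, splits milk sugar and is the disaccharidase of suckling animals. It was low and variable in WT, at 9.78, 13.9, 45.2, 11.5 and 19.0 FPKM, and was close to the detection limit in Apc, at 0.00681, 0.0456, 0.0545 and 0.0991. Apc 1 held 2 counts, below the 3 counts taken as the limit of detection, and Apc 6 held 29. The log2 fold change of -8.82 ± 0.74 (SE; adjusted p = 2.67e-06, edgeR) therefore had the widest interval of the 10 genes, -10.5 to -7.18. Treh, which encodes trehalase, the enzyme that splits the sugar of fungi and insects, was at 67.1, 47.4, 73.1, 29.7 and 47.4 FPKM in WT and 0.474, 0.623, 0.459 and 0.272 in Apc. Its log2 fold change was -7.36 ± 0.36 (SE), a 164-fold fall, and its groups were far apart. Treh shares 2 exonic bases with Phldb1 on the other strand.

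The peptidases were divided in the same way, with a single near-complete loss. Enpep, glutamyl aminopeptidase, which removes acidic residues from the amino end of peptides, was at 45.1, 56.2, 65.8, 79.2 and 95.7 FPKM in WT and 0.235, 0.486, 0.117 and 0.193 in Apc. Apc libraries held 18 to 52 counts where WT held 7347 to 14052, and the log2 fold change was -8.71 ± 0.37 (SE; adjusted p = 2.65e-08, edgeR). Anpep encodes aminopeptidase N, which removes neutral residues, and was the member with the smallest difference. Its FPKM was 37.8, 59.6, 49.1, 26.1 and 47.5 in WT and 20.6, 19.6, 33.0 and 22.9 in Apc, and the groups overlapped, since Apc 5 stood above WT 6. The mean was 44.0 ± 12.7 (SD, n = 5) in WT and 24.0 ± 6.16 (SD, n = 4) in Apc. The log2 fold change was -1.21 ± 0.25 (SE; interval -1.75 to -0.66; adjusted p = 0.00147, edgeR), a value below which 13% of all genes tested lay. On the FPKM scale, in limma, it was -0.83 (adjusted p = 0.0104) with a pseudocount of 1 and -0.85 (adjusted p = 0.00992) with 0.1, short of the fold threshold; that scale shifts the median of all genes by 0.167 and 0.277. The ratio of Enpep to Anpep FPKM was 0.943 to 3.04 in WT and 0.00354 to 0.0248 in Apc.

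Dpp4, dipeptidyl peptidase 4, which clips dipeptides from peptides with proline in the penultimate position and inactivates incretin hormones, kept 24.0% of its WT mean FPKM. It was at 27.9, 35.0, 42.0, 31.4 and 35.5 FPKM in WT and 6.004, 6.95, 12.4 and 7.60 in Apc, with Apc 5 the highest of the mutant libraries and still 2.25-fold below the lowest WT library. The log2 fold change, from counts in edgeR, was -2.67 ± 0.22 (SE), a 6.38-fold fall. Mean FPKM was 4.17-fold lower, so these scales gave different sizes. An antisense gene, Gm13561, overlaps 232 exonic bases of Dpp4 (3.67%) and had 0 to 15 counts in the 13 libraries.

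Meprins are metalloproteases built from alpha and beta subunits, which Mep1a and Mep1b encode. Mep1a was at 14.5, 12.6, 11.3, 12.2 and 10.1 FPKM in WT and 3.39, 4.74, 5.19 and 3.45 in Apc, and Mep1b at 35.4, 29.4, 46.0, 27.8 and 39.3 in WT and 6.14, 4.52, 5.20 and 6.99 in Apc. Neither gene's groups overlapped, with log2 fold changes of -1.79 ± 0.15 and -2.92 ± 0.19 (SE). The ratio of Mep1b to Mep1a was 2.27 to 4.07 in WT and 0.953 to 2.02 in Apc, so the beta subunit mRNA lost its excess over the alpha subunit mRNA in part.

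Alpi encodes intestinal alkaline phosphatase and stood second in abundance in WT. Its FPKM was 520, 286, 436, 242 and 340 in WT and 1.18, 1.72, 0.416 and 0.635 in Apc, 0.271% of the WT mean. On the log2 scale the difference was -8.81 ± 0.49 (SE; interval -9.90 to -7.72; adjusted p = 1.55e-07, edgeR). Akp3, a second intestinal phosphatase gene of the same cluster on chromosome 1, was at 45.8 to 177 FPKM in WT and 0.689 to 1.51 in Apc, and Alpi's excess over it, 2.54-fold to 7.42-fold in WT, was 0.546-fold to 1.14-fold in Apc. Transcripts of other genes, mainly Akp3, share 2.4% of the 50-base stretches of Alpi, so reads between these genes are uncertain to that extent.

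**Figure D2:**
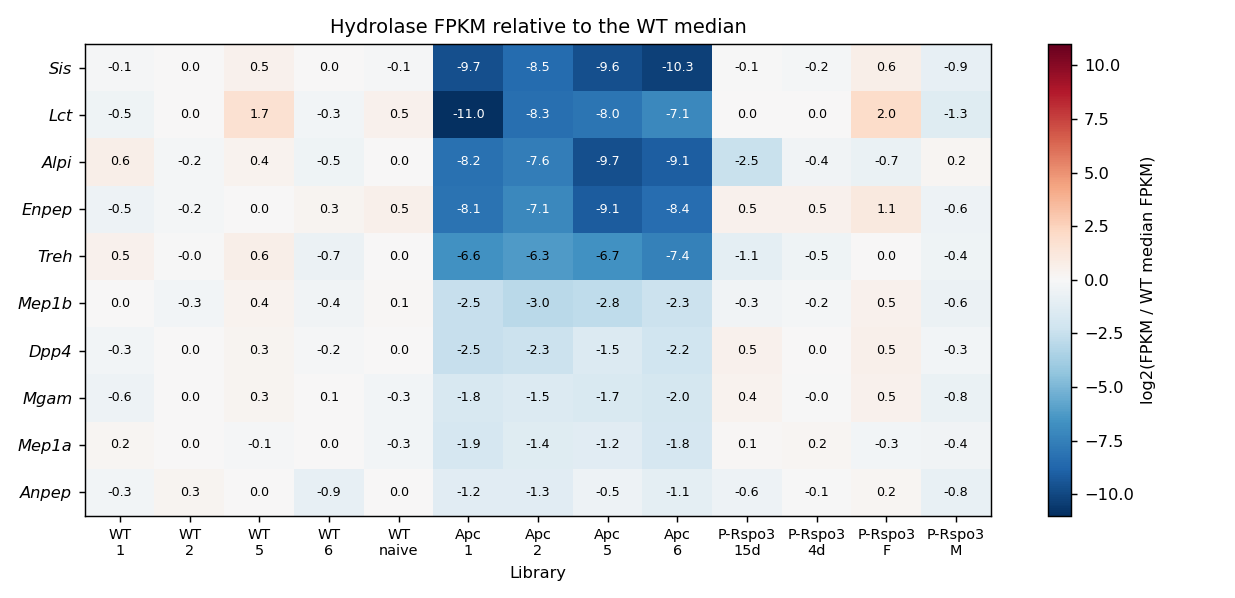
Log2 ratio of FPKM to the WT median for each hydrolase (rows, ordered by fold change in Apc) in each of the 13 libraries (columns); blue is below and red above the WT median. The 5 upper rows are dark in all 4 Apc columns, and the palest blue in the Apc columns is Anpep, while Alpi in P-Rspo3 15d (-2.45) is the lowest value outside the Apc columns.

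The mix of hydrolase mRNA changed with these unequal falls. In WT, Sis made up 44.8 to 55.5% of the summed FPKM of the 10 genes and Alpi 17.7 to 33.6%, whereas Mgam made up 6.20 to 10.8% and Anpep 1.91 to 4.12%. In Apc the sum was 79.4 to 102 FPKM, of which Mgam made up 43.5 to 55.0% and Anpep 21.6 to 32.3%, with Sis at 0.772 to 2.33%. The order of the levels therefore differed: in Apc, Mgam stood above Anpep in 4 of 4 libraries, Anpep above Dpp4 in 4 of 4, and Mep1a above Sis in 4 of 4. Dpp4 stood above Mep1b and Mep1b above Mep1a in 3 of 4 libraries each (8.24, 5.71 and 4.19 mean FPKM), and Sis and Alpi (1.15 and 0.988) were not separated, with Sis higher in 2 of 4. Treh came next, above Enpep in 4 of 4 libraries, and Enpep stood above Lct in 4 of 4. These shares follow from the levels given above and are a description, with no test.

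**Figure D3:**
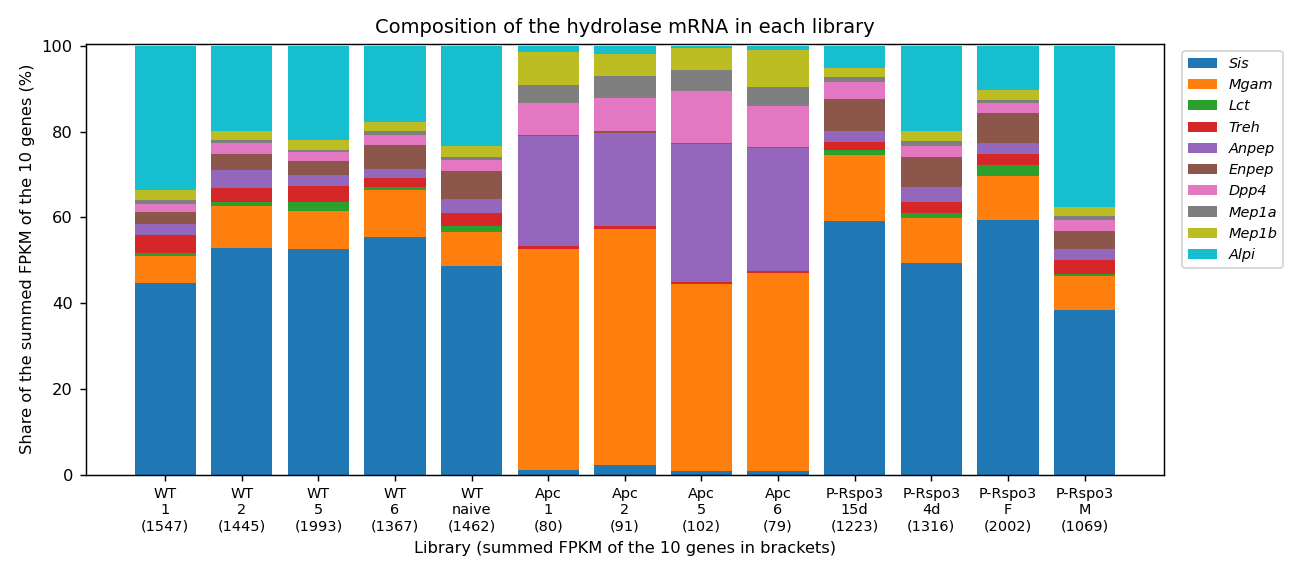
Share of each hydrolase in the summed FPKM of the 10 genes (%, stacked bars) in each library, with the sum in brackets. Sis and Alpi fill most of each WT bar, and Mgam and Anpep most of each Apc bar, where the sum is 79.4 to 102 FPKM; in P-Rspo3, Sis holds 38.5 to 59.5% and Alpi from 5.07% in 15d to 37.7%.

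Enterocyte markers outside the hydrolases moved with them. All 6 of the markers examined (Fabp1, Fabp2, Apoa1, Apoa4, Krt20 and Rbp2) were called lower in Apc, from -12.5 for Apoa4 to -4.06 for Fabp2 on the log2 scale, and their summed FPKM was 2560 to 8510 in WT and 24.5 to 52.8 in Apc, with none at 0 in any group. The summed FPKM of 5 proliferation genes was 269 to 330 in WT and 497 to 551 in Apc. Their log2 fold changes were 0.26 to 1.007, of which only that of Mcm2 was called, on the edge of the fold threshold. All 5 were positive with an adjusted p under 0.05 (edgeR), so the other genes missed only the fold threshold. Of the 16749 genes tested, 10513 had an unadjusted p under 0.05. In bulk RNA, fewer enterocytes and less hydrolase mRNA per enterocyte cannot be told apart, and the part of either in the hydrolase result was not tested.

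In P-Rspo3 organoids no hydrolase differed detectably from WT. None of the 10 was called by edgeR, 0 had an unadjusted p under 0.05, and DESeq2 and limma called none either. Over all 15992 genes tested, 0% were called lower and 0.00625% (1 gene, Rspo3) higher, although 2159 had an unadjusted p under 0.05, and leaving out WT naive raised the calls to 100 lower and 166 higher, none of them among the 10. The median log2 fold change of the 10 was -0.085, beside 0.00412 for all genes. The groups overlapped for each of the 10.

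Sis was at 724, 649, 411 and 1190 FPKM in P-Rspo3 15d, 4d, M and F, and its log2 fold change against WT was -0.12 with a 95% interval of -0.75 to 0.51. Mgam was at 188, 139, 83.2 and 203 FPKM in the same order. Its difference of 0.17 had an interval of -0.40 to 0.75. For these abundant genes the data thus leave room for changes of somewhat less than a doubling or halving, but not for the change seen in Apc. Lct, at 14.0, 14.1, 5.66 and 55.3 FPKM, varied 9.78-fold between P-Rspo3 libraries, and its interval of -1.32 to 1.64 is correspondingly wide. Anpep (31.9, 45.5, 26.98 and 54.0 FPKM), Mep1a (13.3, 14.3, 9.17 and 9.92) and Mep1b (27.9, 31.1, 22.8 and 50.1) had log2 fold changes of -0.16, -0.07 and -0.10. The interval was narrowest for Mep1a, -0.37 to 0.23. Dpp4 (48.7, 35.1, 28.2 and 50.7 FPKM) and Enpep (91.9, 92.6, 44.3 and 137) had differences of 0.20 (-0.23 to 0.62) and 0.41 (-0.26 to 1.07), the highest of the 10 being that of Enpep.

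The lowest values in P-Rspo3 were those of Alpi and Treh. Alpi was at 62.0, 261, 403 and 204 FPKM in 15d, 4d, M and F, so that 15d and F lay under every WT library while 4d and M lay within the WT range. The log2 fold change was -0.67 (interval -1.64 to 0.29; unadjusted p = 0.152, edgeR). Akp3, named here after its values were seen, was at 0.870, 31.6, 116 and 10.3 FPKM in the same libraries, a 133-fold range within the group, and was not called (-1.45; interval -3.59 to 0.68). Treh was at 22.1, 34.2, 34.9 and 48.1 FPKM, with a log2 fold change of -0.58 (interval -1.24 to 0.07; unadjusted p = 0.0760, edgeR). The same libraries tended to hold the extremes of several genes: P-Rspo3 F had the highest value of the group for 8 of the 10 hydrolases and P-Rspo3 M the lowest for 8, while Alpi was highest in M. Summed enterocyte marker FPKM was 1592, 2695, 3499 and 4374 in 15d, 4d, M and F, beside 2556 to 8514 in WT, and its part in these differences between libraries was not tested. None of the 6 enterocyte markers was called in P-Rspo3 against WT by edgeR, but all 6 had negative values, with a median log2 fold change of -0.69, and 3 had an unadjusted p under 0.05: Apoa1 (-1.19; adjusted p = 0.19, edgeR), Fabp1 (-0.998) and Apoa4 (-0.88). In WT, library 5 held the highest value for 6 of the 10, and its enterocyte marker sum of 8514 was also the highest.

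**Figure D4:**
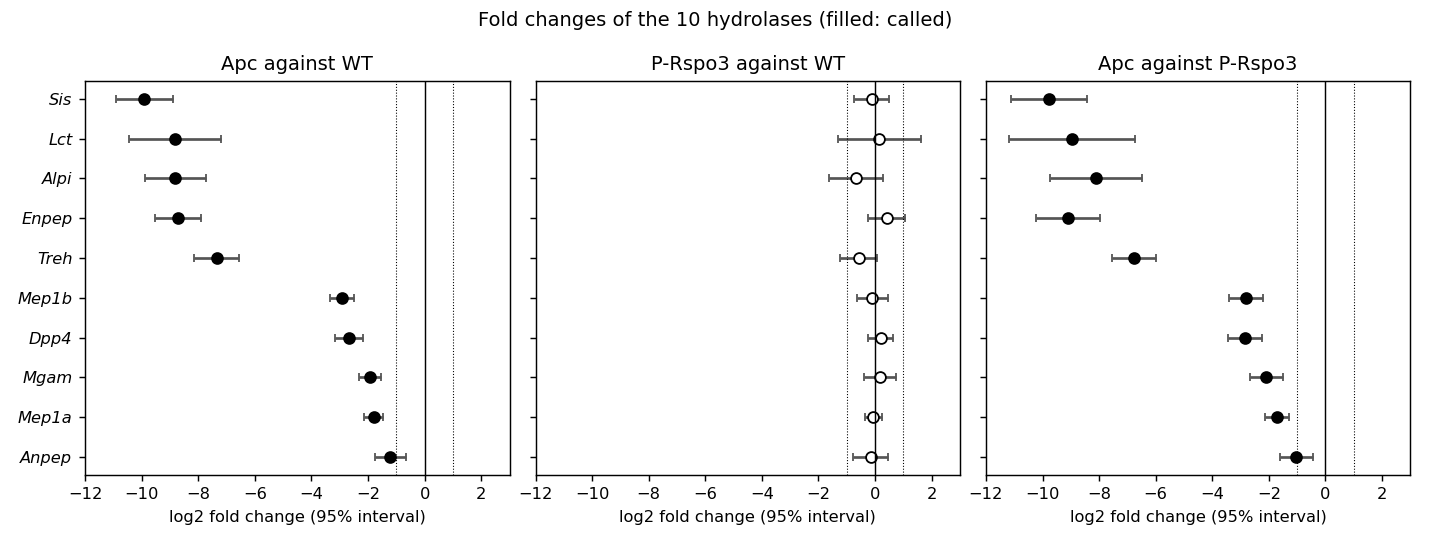
Log2 fold change with its 95% interval (edgeR) for each hydrolase in the 3 comparisons; filled points were called, open points were not, and dotted lines mark a log2 fold change of -1 and 1. Against both WT and P-Rspo3, Apc shows all 10 genes to the left of -1, with Anpep nearest to it, and in P-Rspo3 against WT every interval includes 0.

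Apc and P-Rspo3 organoids shared the EN medium, so this comparison holds the medium constant, and it uses the same Apc libraries as the comparison with WT. The origin of the cultures still differs between these groups, and induction with doxycycline is stated for the P-Rspo3 cultures only. Neither can be told apart from genotype. All 10 hydrolases were called lower in Apc, where 13.3% of 16456 genes tested were called lower and 13.4% higher, and 9 of the 10 had lower FPKM in every Apc library (17.5% of all genes tested). Log2 fold changes ran from -9.77 for Sis to -1.03 for Anpep, with a median of -4.80 beside 0.00066 for all genes. Lct (-8.96 ± 0.99), Enpep (-9.11 ± 0.50), Alpi (-8.12 ± 0.72) and Treh (-6.75 ± 0.35, SE) again lay far from Dpp4 (-2.85 ± 0.27), Mep1b (-2.80 ± 0.27), Mgam (-2.08 ± 0.26) and Mep1a (-1.71 ± 0.19, SE). Anpep, at -1.03 ± 0.26 (SE), rested on the choice of libraries: it fell short of the fold threshold without Apc 1 (-0.98), Apc 2 (-0.93), Apc 6 (-0.995), P-Rspo3 4d (-0.97) or P-Rspo3 F (-0.82), while its adjusted p stayed at 0.0238 or below in each.

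Other hydrolases of the brush border membrane behaved much as the 10 did, though not without exception. Of 21 such genes listed, 17 were tested in Apc against WT and 13 were called lower, with a median log2 fold change of -5.24; none was called higher. Ggt1, gamma-glutamyltransferase, which acts on glutathione, had the largest fall at -11.4. Xpnpep2, a membrane aminopeptidase acting before proline, had the smallest among those called at -1.35. Xpnpep2 lost its call on both FPKM scales, and Tmprss15 and Nt5e lost theirs on the scale with a pseudocount of 1. The fewest of the list called lower in any alternative was 10. Tmprss15, the enteropeptidase that activates trypsinogen, Enpp7, alkaline sphingomyelinase, and Alppl2, a further phosphatase of the chromosome 1 cluster, had at most 3 counts in every Apc library and were at least 56.2-fold, 68.6-fold and 39.1-fold lower. The 4 not called were Plb1 (0.31), a phospholipase, Entpd8 (-0.72), a nucleotide hydrolase, Vnn1 (-0.58), a pantetheinase, and Alpl (1.44), the tissue-nonspecific alkaline phosphatase, which was called higher with the line as a block (1.59, adjusted p = 0.0481, edgeR). Folh1 and Lctl were too low to be tested in this comparison, and Cpo and Dpep1 were not analysed here. In P-Rspo3 against WT, where Lctl was tested and Alpl was not, 0 of 17 were called by edgeR, and 1, Tmprss15, had an unadjusted p under 0.05 (-2.18, interval -4.21 to -0.16).

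Soluble and intracellular glycosidases and peptidases, listed as intracellular relatives, served as a contrast. They include lysosomal Gaa, a glycosidase related to Sis and Mgam, Ganab of the endoplasmic reticulum, the cytosolic dipeptidyl peptidases Dpp8 and Dpp9, and the aminopeptidases Npepps and Erap1. Of these 13 genes, 0 were called in either direction in Apc against WT by edgeR, although 3 (Glb1, Erap1 and Lap3) had an adjusted p under 0.05 and missed only the fold threshold, 4 (with Rnpep) had an unadjusted p under 0.05, and the median log2 fold change was -0.06. The values ran from -0.98 for Glb1, the lysosomal beta-galactosidase, to 0.22 for Rnpep, so that Glb1 lay at the edge of the fold threshold. It was called lower in 6 of 19 alternatives: without WT 6, WT naive, Apc 2 or Apc 5, with the line as a block, which also leaves out WT naive (-1.05, adjusted p = 0.000407, edgeR), and with NAIVE_F, a library whose labels do not settle its group, added to WT. It was also called lower against P-Rspo3 (-1.01), there in 12 of 17 alternatives. The summed FPKM of the 13 was 405 to 455 in WT, 459 to 503 in Apc and 430 to 463 in P-Rspo3.

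Transporters that take up the products of the hydrolases were lower in Apc throughout. All 9 were called lower, with a median log2 fold change of -7.23, from -12.1 for Slc6a19, the main carrier of neutral amino acids, to -3.07 for Slc1a1, a carrier of glutamate. Slc15a1, the peptide transporter PEPT1, had at most 3 counts in every Apc library and was at least 350-fold lower. For glucose and fructose, the products of the disaccharidases, log2 fold changes were -5.13 for Slc5a1 (SGLT1), -9.91 for Slc2a2 (GLUT2) and -7.23 for Slc2a5 (GLUT5). In P-Rspo3 against WT, 0 of 9 were called by edgeR and 1, Slc5a1, had an unadjusted p under 0.05 (-0.69, interval -1.33 to -0.05).

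Structural genes of the microvillus, the scaffold that carries the hydrolases, fell by less. Of 10, 7 were called lower in Apc against WT, with a median of -1.33 over the list; the largest fall was that of Cdhr5 (-3.07), a cadherin that links microvillus tips, and the smallest call that of Vil1 (-1.26), the actin bundler villin. The 3 not called were Ezr (0.12), Eps8 (0.70) and Myo7b (-0.09). Vil1 lost its call on both FPKM scales and Ush1c on the scale with a pseudocount of 1, while Eps8 was called higher on both FPKM scales and, against P-Rspo3, in edgeR (1.22). In P-Rspo3 against WT, 0 of 10 were called by edgeR and 2, Eps8 (-0.49) and Myo7b (-0.30), had an unadjusted p under 0.05.

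**Figure D5:**
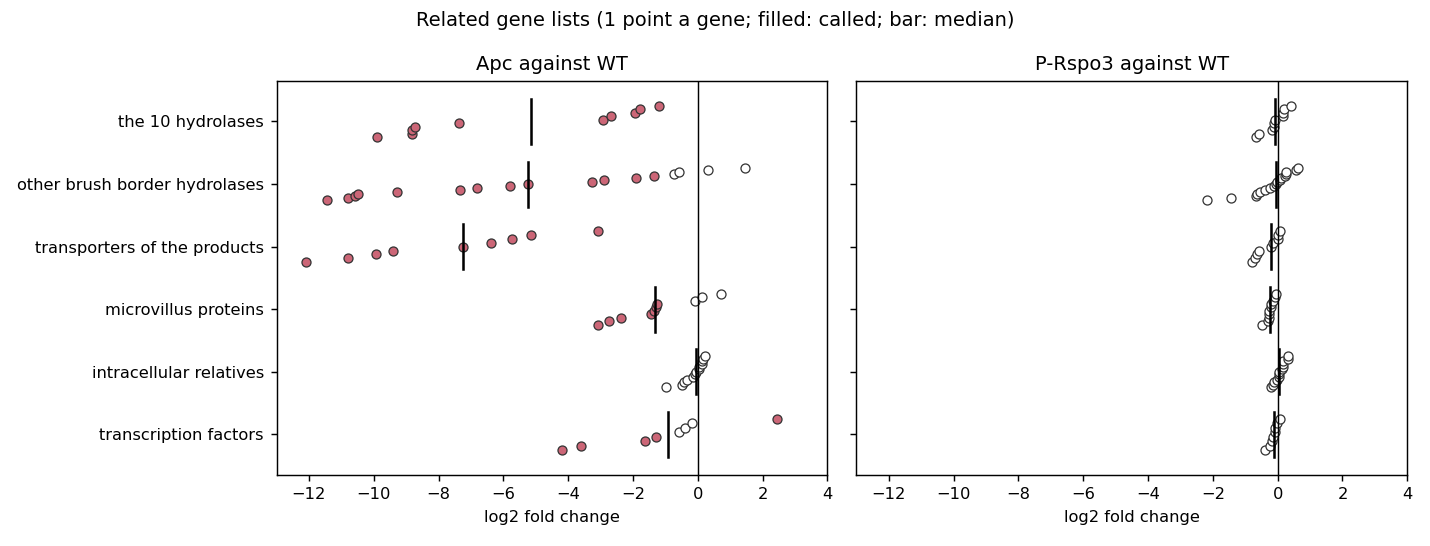
Log2 fold change of the tested genes of 6 lists in Apc against WT (left) and P-Rspo3 against WT (right); each point is a gene, filled points were called and the vertical bar is the list's median. In Apc against WT the hydrolases, the other brush border hydrolases and the transporters have medians of -5.14, -5.24 and -7.23, the intracellular relatives of -0.06, and in P-Rspo3 against WT no point is filled.

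Transcription factors known to act on these promoters in enterocytes did not change as a block. In Apc against WT, 4 of 8 were called lower: Cdx1, a caudal homeobox factor, at -4.18 ± 0.18 (SE), Hnf4g at -3.59 ± 0.09, Gata6 at -1.63 ± 0.13 and Hnf4a at -1.28 ± 0.06, the last of which lost its call on both FPKM scales. Prdm1, which represses adult enterocyte genes in the suckling intestine, was called higher at 2.46 ± 0.16. Cdx2 (-0.17), Gata4 (-0.59) and Klf4 (-0.39) were not called. In P-Rspo3 against WT, 0 of 8 were called by edgeR and 0 had an unadjusted p under 0.05.

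Among 17277 other genes, the profiles nearest to the mean of the 10 hydrolases over the 13 libraries were those of Tmem236, Pdzd3, Fmo5, Smlr1 and Gm21885. Nearness was the root mean square distance of centred log2(CPM + 1), CPM being counts scaled to the library total after TMM adjustment. The distances were 0.200, 0.203, 0.243, 0.250 and 0.260, whereas the members themselves lay at 0.636 (Treh) to 2.24 (Sis) from their own mean. Tmem236, a membrane protein, was at 28.0 to 43.8 FPKM in WT, 0.870 to 1.24 in Apc and 23.5 to 34.3 in P-Rspo3. Pdzd3, a scaffold protein of the brush border, was at 7.33 to 12 FPKM in WT, 0 to 0.0192 in Apc and 8.13 to 12.1 in P-Rspo3, and Fmo5, a flavin monooxygenase, at 29.9 to 68.4, 0.812 to 1.93 and 30.1 to 58.0. Smlr1 was at 21.6 to 36.9, 0 to 0.0472 and 21.2 to 35.5 FPKM and Gm21885 at 48.0 to 90.4, 0.180 to 0.960 and at least 53.9 FPKM, in the same order of groups. These 5 genes were chosen for their likeness over the same libraries, and their values are a description.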

How the data were processed

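Poly(A) RNA of 13 organoid cultures in 3 groups, taken from the sample labels, was compared. The 2 libraries titled LIPO and NAIVE_F, whose titles and genotype labels do not settle a group, were given as single values and used in alternatives. Reads had been aligned by the authors with STAR (genome build GRCm38). They deposited raw HTSeq 0.6.0 counts, whole numbers without normalization, and FPKM from Cufflinks 2.2.1. The annotation release and the strand setting are not given in the sources used here, so overlapping genes and similar copies are uncertain.

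edgeR 4.0.16 (R 4.3.3; TMM, glmQLFit and glmQLFTest at their defaults) was fitted to the counts of each pair of groups separately. The filter kept a gene that reached 0.1 FPKM in a number of libraries equal to the size of the smaller group. A call needed p under 0.05 after Benjamini-Hochberg adjustment over all genes tested and a log2 fold change beyond 1 in either direction. The standard error was derived from the F statistic, and 95% intervals from it. Where all libraries of a group held 3 counts or fewer, the fold is given as a lower bound; this limit covers counting error only. The members and gene lists were chosen with earlier results of these data known, and no list was tested as a set. Some genes of these lists, and a motif, are not reported here, and the lists' counts, medians and sums leave them out. Named from each list are its called genes with the largest and smallest log2 fold change and those not called in the direction of most of the list; other genes were named after their values were seen. Symbols, positions and transcripts came from GENCODE M21 (GRCm38), promoter sequences from RefSeq (GRCm38.p6).

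By title, each numbered WT library and the Apc library of that number are of 1 line. Departures from the group means correlated with a median r of 0.109 within lines (-0.0193 to 0.222, 4 pairs) and -0.0391 between lines (12 pairs). Among the 23 pairs of libraries compared, none was a duplicate (smallest chi-square per gene 20.5). The edgeR fits were first tested on simulated counts. Alternatives were DESeq2 size factors, DESeq2 1.42.0, the newer form of the edgeR test, no filter, limma 3.58.1 on log2(FPKM + 1) and log2(FPKM + 0.1), 3 groups in 1 fit, both groupings of the 2 further libraries, a replicate block and each library left out.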

Additional observations from a re-analysis of the deposited data

Results flagged for a closer look

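In 30 sets of values (10 hydrolases in 3 groups), 3 held a library that stood apart from the rest by the size of its gap. Chance gives about 1 in 20 for independent sets of normally distributed values. These sets share libraries and hold unlogged FPKM, so that rate is only a rough guide. WT 5 stood apart for Sis (1051 FPKM, beside 693 to 763 in the other WT libraries) and for Lct (45.2 FPKM, beside 9.78 to 19.0), and P-Rspo3 F for Lct (55.3 FPKM, beside 5.66 to 14.1). Without WT 5 the log2 fold change of Lct in P-Rspo3 against WT was 0.74, and without P-Rspo3 F it was -0.92, neither of them called.

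In the 2 libraries outside the groups, Alpi and Mep1a lay above the highest WT library. Alpi was at 540 FPKM in the library titled LIPO and 527 in that titled NAIVE_F, beside a WT maximum of 520, and Mep1a was at 15.7 and 16.0 FPKM, beside a WT maximum of 14.5.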

How the results depend on the processing

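Over the alternatives, 188 fold changes of single hydrolases in Apc against WT kept their direction and their call and 2 kept only the direction; in Apc against P-Rspo3 162 kept both and 8 only the direction. The exceptions were all Anpep. It missed the fold threshold in limma on log2(FPKM + 1) (-0.83 against WT, -0.68 against P-Rspo3) and log2(FPKM + 0.1) (-0.85 and -0.70), which by their scale move the median of all genes by 0.16 to 0.277, and against P-Rspo3 with the further libraries grouped by genotype (-0.97; the cause was not tested) or with any of 5 libraries left out (range over all libraries -1.23 to -0.82). The number of hydrolases called lower was 9 or 10 in each alternative. The fit with the line as a replicate block in Apc against WT also leaves out WT naive. In that fit 10 were called lower, and no call of the 10 changed. Among the genes of the other lists, the calls of Alpl and Glb1 changed, that of Glb1 also without WT naive alone. Over all genes, the fit with the block called 2240 lower and 1979 higher, beside 2364 and 2048 without it. Among all genes, limma on log2(FPKM + 1) called 1132 lower in Apc against WT where edgeR called 2364, and the share of calls that were higher was 55.6% and, with 0.1, 59.9% where edgeR gave 46.4%; against P-Rspo3 these shares were 56.0%, 61.2% and 50.3%, with 1124 lower and 1430 higher under a pseudocount of 1.

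In P-Rspo3 against WT no hydrolase was called in any alternative, and small differences changed sign. Lct was -0.0726 and -0.0917 in limma with a pseudocount of 1 and 0.1, and -0.0125 with the further libraries grouped by genotype. With each library left out in turn, Sis ranged from -0.485 to 0.0863, Lct from -0.919 to 0.739, Mgam from -0.025 to 0.379, Mep1a from -0.179 to 0.034, Mep1b from -0.409 to 0.0457 and the median of the 10 from -0.394 to 0.066. Over all genes, 0 to 173 were called lower and 0 to 166 higher; DESeq2 gave 173 lower and 55 higher, the fit of 3 groups 63 and 11, and the fit without WT naive 100 and 166.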

Other observations

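The library titled LIPO (labelled Dox naive, ENR medium) had 0 counts of Rspo3 and the library titled NAIVE_F (labelled Ptprk-Rspo3, EN medium) had 729. Of the 10 hydrolases, 7 lay within the WT range in LIPO, with 1 below it (Dpp4, 12.9 FPKM) and 2 above, and 6 in NAIVE_F, with 2 below it (Lct, 8.55 FPKM, and Dpp4, 22.5 FPKM) and 2 above. Sis was at 783 FPKM in LIPO and 819 in NAIVE_F, and Akp3 at 150.4 and 147.5 FPKM.

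Stem cell genes did not share a direction in Apc against WT: of 4, Lgr5 (1.45), Ascl2 (1.54) and Smoc2 (1.21) were called higher and Olfm4 (-9.78) lower. Of the secretory lists, 5 of 6 Paneth genes and 6 of 7 goblet genes were called lower, from -4.47 (Defa24) to -2.10 (Lyz1) and from -9.01 (Zg16, at least 297.9-fold) to -2.72 (Tff3), with Mmp7 (1.74) called higher and Agr2 (-0.93) not called. Of 7 enteroendocrine genes 5 were called lower, from -7.85 (Gip) to -3.02 (Chga), with Neurod1 (-0.43) and Sct (-0.73) not called, and of 5 tuft genes 4, from -4.71 (Dclk1) to -1.78 (Trpm5, not called on either FPKM scale), with Pou2f3 (-0.82) not called. In P-Rspo3 against WT none of these 29 genes was called by edgeR, and 3, Muc2 (0.60), Gfi1b (-1.11) and Sh2d6 (-0.82), had an unadjusted p under 0.05.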
